A study of Homo sapiens with 4 samples.

Results

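The genes described here encode proteases that act outside the cell or at its surface, and the proteins that inhibit them. They were taken by symbol from the array annotation: the matrix metalloproteinases (MMP), their inhibitors (TIMP), the serpins, the ADAM and ADAMTS metalloproteinases, the SPINK inhibitors, the A-type carboxypeptidases, carboxypeptidase N, the plasminogen activators with the urokinase receptor, and SLPI. In all, 97 of 14232 genes with a single symbol met the rule, and 2 further genes of these families are not reported here. The name "secreted" does not hold for each of them: the ADAM proteins span the membrane, the urokinase receptor PLAUR is anchored to it, most clade B serpins stay in the cytosol and SERPINH1 is a resident of the endoplasmic reticulum. A further 11 symbols of these families, among them the sheddases ADAM10 and ADAM17, occurred only in transcript clusters annotated to several genes and were not used.

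Total RNA was measured on 4 exon arrays. It came from cells labelled HepG2, the name of a hepatocellular carcinoma line, and from K562, a chronic myeloid leukaemia line. Cells of each line carried a stably transfected plasmid with either an siRNA against ADAR1, the enzyme that converts adenosine to inosine in double-stranded RNA (ADARkd), or a scrambled siRNA (SCR). The cells labelled HepG2 were grown in DMEM and K562 in RPMI 1640, so that medium and line cannot be told apart. There was 1 array for each line and arm, and the sources used here do not say whether the transfected cells were clones or pools. The study asked how ADAR acts on alternative splicing, and its intensities summarised per gene are described here.

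Proteolysis around the cell is set by the balance of enzymes and inhibitors. Plasminogen activators turn plasminogen into plasmin, which degrades fibrin and activates other enzymes. MMP and ADAMTS enzymes cut matrix proteins, ADAM enzymes release growth factors and receptors from the surface, TIMPs block the metalloproteinases, and serpins trap serine proteases in an irreversible complex. In the liver, hepatocytes make most of the serpins of blood plasma.

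Promoter sequences are shown for 4 of the 7 members that lay at least 2-fold apart between ADARkd and SCR. These 7 are the members the knockdown comparison turns on. No promoter window was found for PLAT or ADAMTS5, so neither was searched for motifs. The SERPINE2 windows were searched but are not printed. RefSeq windows (build GRCh38.p14) were found for 63 of the 97 members, and the 250 bases before the annotated start were used. Capitals mark matches to the AP-1 motif TGANTCA, searched on both strands. The window of CPA4 is chr7:130292911-130293160 (plus strand), that of SERPINB8 chr18:63969831-63970080 (plus), that of the first of 2 annotated SPINK6 starts chr5:148202528-148202777 (plus) and that of SERPINI1 chr3:167735471-167735720 (plus). CPA4, SERPINB8 and SPINK6 were higher in ADARkd on the arrays labelled HepG2, and SERPINI1 was lower.
CPA4: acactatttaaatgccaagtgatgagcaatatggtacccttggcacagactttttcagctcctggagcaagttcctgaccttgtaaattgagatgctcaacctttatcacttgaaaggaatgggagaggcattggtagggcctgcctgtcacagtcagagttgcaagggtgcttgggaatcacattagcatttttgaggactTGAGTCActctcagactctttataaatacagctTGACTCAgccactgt
SERPINB8: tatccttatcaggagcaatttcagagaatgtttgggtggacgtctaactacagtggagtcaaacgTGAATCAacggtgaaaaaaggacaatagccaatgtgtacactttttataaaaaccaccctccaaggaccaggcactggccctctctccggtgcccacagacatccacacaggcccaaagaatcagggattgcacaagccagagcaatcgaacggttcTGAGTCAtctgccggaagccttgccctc
SPINK6: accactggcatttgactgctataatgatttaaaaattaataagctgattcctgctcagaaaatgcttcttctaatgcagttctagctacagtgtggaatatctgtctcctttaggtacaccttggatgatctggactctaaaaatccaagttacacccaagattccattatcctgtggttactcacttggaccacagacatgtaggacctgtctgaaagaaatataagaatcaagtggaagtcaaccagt
SERPINI1: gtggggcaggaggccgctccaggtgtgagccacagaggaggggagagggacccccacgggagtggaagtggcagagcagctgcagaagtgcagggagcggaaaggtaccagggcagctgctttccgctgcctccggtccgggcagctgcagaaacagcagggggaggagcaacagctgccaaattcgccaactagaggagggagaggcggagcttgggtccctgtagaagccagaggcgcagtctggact
CPA4 had matches that begin 48 and 15 bases before the start, and SERPINB8 had them at 185 and 28 bases. The SERPINI1 window and both SPINK6 windows held none, nor did the 2 windows of SERPINE2, another member higher in ADARkd.

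Of 75 member windows, 13 (17.3%) held the AP-1 motif, against 6.57% of 35116 windows of all genes. The shares for the TATA motif TATAAA were 22.7% and 10.7%, for the STAT motif TTCNNNGAA 12% and 6.57%, for the TEAD motif GGAATG 6.67% and 11.9%, and for the NF-kB consensus 8% and 9.96%. The motifs were searched on both strands and may overlap. Windows with an AP-1 match belonged to 12 members. Of these, 9 lay under the median level of all genes in both lines, MMP7, MMP10 and MMP20 among them. On the arrays labelled HepG2, 2 of the 12 were at least 2-fold higher in ADARkd and 0 lower, with a median difference of 0.01. Of 51 members with windows but no match, 2 were higher and 1 lower, with a median of -0.05. Among all genes 1.59% were higher and 1.4% lower. A tie between the motif and the knockdown was not tested. A match describes the letters of the window and shows no binding.

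The targeted gene was lower in both knockdown arrays: ADAR stood at 31.0% of its SCR intensity on the arrays labelled HepG2 and at 43.2% in K562. Median intensities of the 4 arrays lay close together, from 36.1 in the dimmest to 36.7 in both SCR arrays and slightly above in the remaining array, and their number limits the precision of each value. Of 20 measured hepatocyte markers, only CPS1 and FOXA1 lay at or above the median level of all genes on the arrays labelled HepG2, where ALB (albumin) stood at 3.04 and 2.97 on the log2 scale. The summed intensity of these markers was 2202 and 1816 there, most of it from CPS1 (10.9 and 10.6 on the log2 scale), and 335 and 358 in K562. Of 7 erythroid markers, 6 lay at or above it in K562. The arrays are therefore called labelled HepG2, and each direction drawn from them carries that limit.

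Levels are given as log2 intensity, in the order SCR and then ADARkd. The median level of all genes was 5.31 on the arrays labelled HepG2 and 5.28 in K562. Of the 97 members, 17 lay at or above it on the arrays labelled HepG2, 14 in K562, 22 in at least 1 line and 75 in neither. Detection above background was not analysed here.

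A group of 8 plasma serpins made by hepatocytes was dim on all arrays. SERPINA3 (antichymotrypsin), SERPINA4 (kallistatin), SERPINA6 and SERPINA7 (the carriers of cortisol and thyroxine), SERPINA10, SERPINC1 (antithrombin), SERPIND1 (heparin cofactor II) and SERPINF2 (the plasmin inhibitor of plasma) had mean levels between 2.43 and 4.10 for the arrays labelled HepG2, and between 2.69 and 4.63 for K562. None of these 8 reached the median level in either line, and none was called between the lines. They were grouped after their values were seen. SERPINF1, which was bright in K562 (7.48 and 7.51), was not put in this group. SERPINC1, for example, stood at 3.70 and 3.29 on the arrays labelled HepG2 and at 3.98 and 3.97 in K562.

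The MMP family was as dim. Of 22 MMP genes, 21 lay under the median level in both lines, and single-array values ran from 2.57 to 5.47. MMP17, a membrane-anchored member, reached the median level in K562, at 5.44 and 5.47, against 4.96 and 4.69 on the arrays labelled HepG2. MMP14, the membrane enzyme that activates the gelatinase MMP2, stood at 3.57, 3.75, 4.01 and 4.05, and MMP2 itself at 3.80, 3.30, 3.61 and 3.58. No MMP was at least 2-fold apart between ADARkd and SCR in either line: differences ran from -0.50 to 0.40 on the arrays labelled HepG2 and from -0.17 to 0.55 in K562.

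The inhibitors of these enzymes were bright in at least part of the arrays. TIMP1 stood at 10.2 and 10.0 on the arrays labelled HepG2 and at 9.99 and 9.59 in K562. TIMP2 stood at 8.68 and 8.44 against 3.88 and 4.10, and TIMP3, which binds to the matrix, at 7.47 and 7.16 against 4.2 and 4.28. For TIMP2 and TIMP3 both arrays labelled HepG2 lay above both K562 arrays, while for TIMP1 the ADARkd array labelled HepG2 exceeded the K562 SCR array by little. TIMP4 stood at 4.82 and 5.72 on the arrays labelled HepG2 and at 4.18 and 4.53 in K562, and only the ADARkd array labelled HepG2 exceeded the median level.

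**Figure D1:**
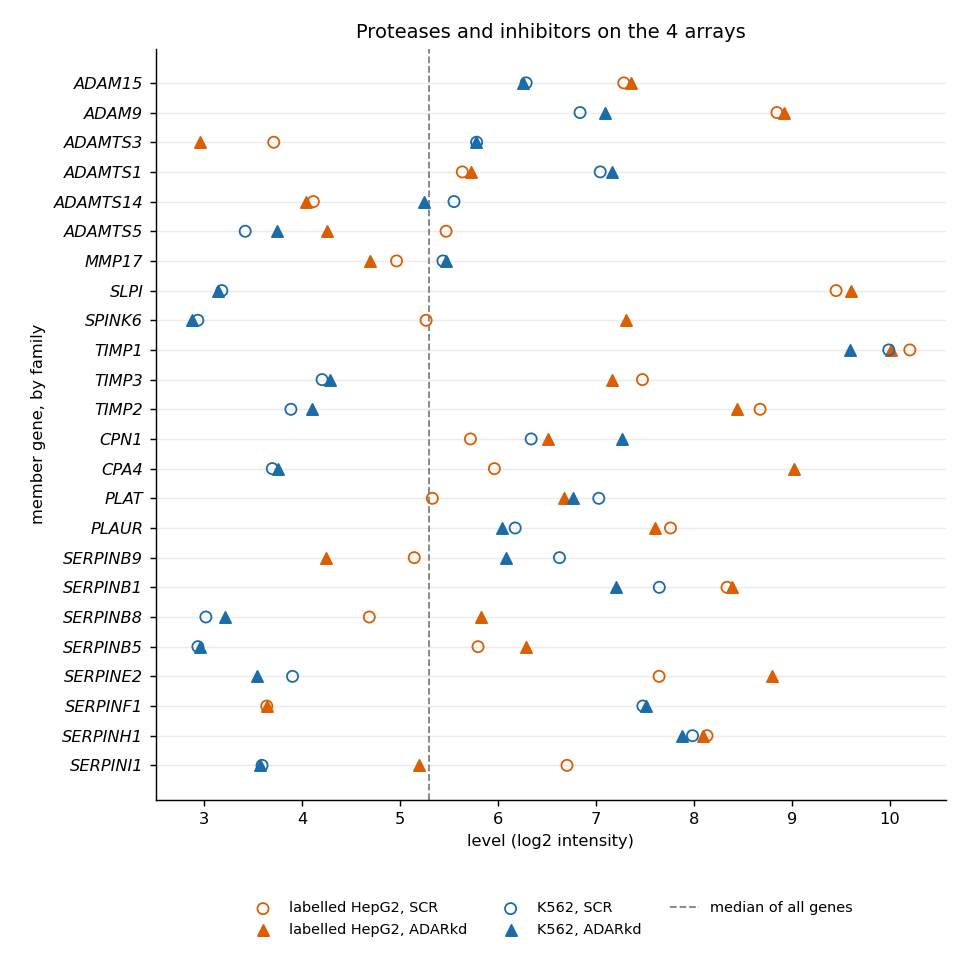
Level (log2 intensity, x axis) of the 24 members that reached the median level of all genes in at least 1 line or were at least 2-fold apart between ADARkd and SCR, 1 gene per row. Circles are SCR and triangles ADARkd, orange the arrays labelled HepG2 and blue K562; the dashed line lies between the median levels of the lines, 5.31 and 5.28. SLPI, TIMP2 and SERPINE2 lie far to the right in orange alone, SERPINF1 in blue alone, and CPA4 has its orange triangle far from its orange circle.

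The lines were compared next, to describe the set of proteases and inhibitors in which ADAR was lowered. By limma with arm as a term, fitted on all genes with 2 arrays per line, 20 of the 97 members passed at an adjusted p under 0.05 and at least 2-fold: 14 were higher on the arrays labelled HepG2 and 6 higher in K562. Among all genes 9.26% were called higher on the arrays labelled HepG2 and 6.84% higher in K562. The 20 members had the same sign in the SCR pair and in the ADARkd pair. The call rests on the mean of these pairs, so this is no separate support. Of the 20 members, 4 lay at or above the median level in both lines, 12 in a single line and 4 in neither, so that most of the sizes have a dim side. The p-values rest on 1 residual degree of freedom and on the spread across genes, not on replicate arrays, and nothing says that the arrays came from separate cultures.

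The 3 farthest differences were those of inhibitors, SLPI, TIMP2 and SERPINE2, all toward the arrays labelled HepG2. SLPI, an inhibitor of neutrophil elastase secreted by mucosal epithelia, stood at 9.45 and 9.60 there and at 3.18 and 3.14 in K562. Its K562 minus HepG2 difference was -6.37 ± 0.21 (SE; limma adjusted p = 2.5e-07). TIMP2 differed by -4.57 ± 0.22 (adjusted p = 7.7e-07) and TIMP3 by -3.08 ± 0.21 (adjusted p = 5.2e-06). In each case both K562 arrays lay under the median level and both other arrays well above it.

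SERPINE2, or protease nexin-1, which inhibits thrombin and plasminogen activators, stood at 7.64 and 8.80 on the arrays labelled HepG2 and at 3.90 and 3.54 in K562 (difference -4.50 ± 0.32, limma adjusted p = 7.2e-06). SERPINB5 (maspin), known from epithelial cells, stood at 5.79 and 6.28 against 2.93 and 2.95 (-3.10 ± 0.20, adjusted p = 3.2e-06). SERPINI1 (neuroserpin), an inhibitor of tissue plasminogen activator, differed by -2.37 ± 0.31 (adjusted p = 0.00034) and SERPINB8 by -2.15 ± 0.24 (adjusted p = 0.00012). The carboxypeptidase CPA4 differed by -3.77 ± 0.53 (adjusted p = 0.00060) and SPINK6 by -3.38 ± 0.39 (adjusted p = 0.00017). The errors of CPA4 and SPINK6 were wider than those of TIMP2 and SLPI, and their arrays labelled HepG2 were themselves far apart between the arms.

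Enzymes and receptors of the surface followed. The sheddase ADAM9 stood at 8.85 and 8.91 on the arrays labelled HepG2 and at 6.84 and 7.09 in K562 (-1.92 ± 0.21, limma adjusted p = 0.00011). PLAUR, which focuses urokinase on the cell, stood at 7.76 and 7.60 against 6.17 and 6.04 (-1.58 ± 0.21, adjusted p = 0.00040). Both genes lay above the median level on all arrays, with the lines apart by more than the arms. ADAM15 (-1.05 ± 0.21, adjusted p = 0.0046), ADAM12 (-1.17 ± 0.22, adjusted p = 0.0036) and the aggrecanase ADAMTS5 (-1.28 ± 0.31, adjusted p = 0.013) passed close to the 2-fold bound. ADAM15 was under that bound after quantile normalization (-0.98) and with an offset of 16 added before the log (-0.92), and so were ADAM12 (-0.64) and ADAMTS5 (-0.71) with the offset.

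Toward K562 the farthest member was SERPINF1, the pigment epithelium-derived factor, a serpin without inhibitory action. It stood at 3.64 and 3.64 on the arrays labelled HepG2 and at 7.48 and 7.51 in K562, a difference of 3.86 ± 0.20 (limma adjusted p = 9.5e-07). ADAMTS3, which trims procollagen, stood at 3.71 and 2.96 against 5.78 and 5.77 (2.44 ± 0.22, adjusted p = 3.1e-05). SERPINB9, the cytosolic inhibitor of granzyme B, stood at 5.14 and 4.24 against 6.63 and 6.08 (1.66 ± 0.21, adjusted p = 0.00025). For these 3 genes both K562 arrays lay above the other arrays.

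ADAMTS1, a protease of matrix proteoglycans, stood at 5.63 and 5.72 on the arrays labelled HepG2 and at 7.04 and 7.17 in K562 (1.43 ± 0.21, limma adjusted p = 0.00071). ADAMTS14, a relative of ADAMTS3, differed by 1.32 ± 0.19 (adjusted p = 0.00063), or 0.82 with the offset of 16. ADAM19 differed by 1.11 ± 0.19 (adjusted p = 0.0017), or 0.88 after cyclic loess and 0.67 with the offset, both under the bound.

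Of the bright members, 5 were not called between the lines. The collagen chaperone SERPINH1 stood at 8.13, 8.09, 7.99 and 7.88, a difference of -0.18 ± 0.20 (SE; limma). SERPINB1, an inhibitor of neutrophil elastase inside cells, stood at 8.34, 8.39, 7.65 and 7.20; its difference of -0.94 ± 0.22 passed the adjusted p (limma, 0.011) and missed the 2-fold bound. TIMP1, PLAT (tissue plasminogen activator) and CPN1, the catalytic subunit of carboxypeptidase N, were the others, and of these CPN1 (0.69 ± 0.21, limma adjusted p = 0.035) passed the adjusted p as well. All 5 lay at or above the median level in both lines.

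**Figure D2:**
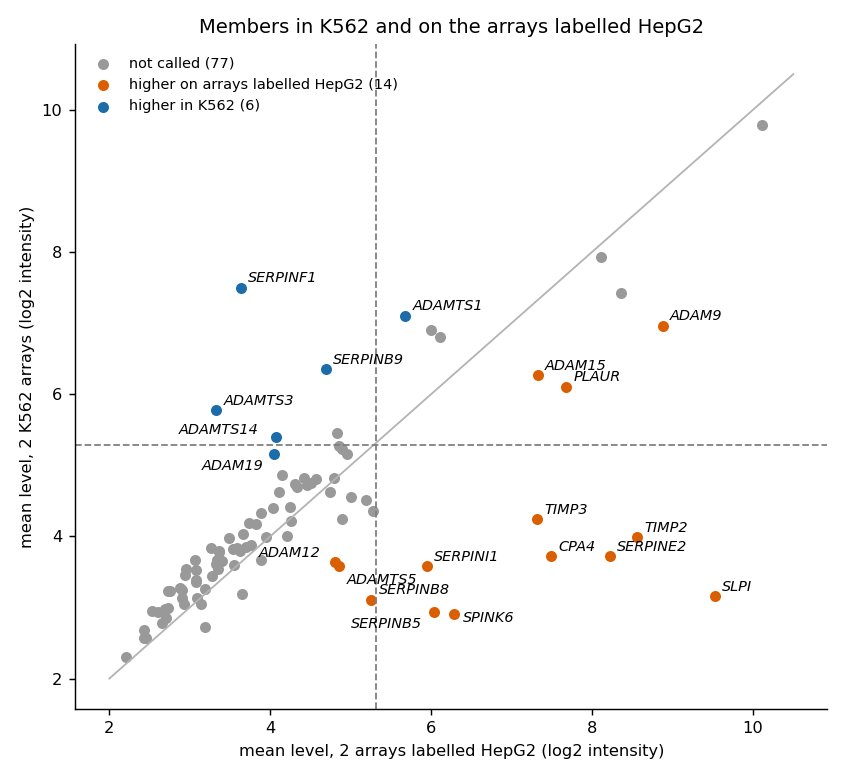
Mean level of the 97 members on the 2 arrays labelled HepG2 (x axis) and on the 2 K562 arrays (y axis), both in log2 intensity; dashed lines are the median levels of all genes and the grey diagonal marks equal levels. Orange points are the 14 members called higher on the arrays labelled HepG2 and blue points the 6 called higher in K562. Most members crowd at the dim lower left, and SLPI lies farthest from the diagonal.

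The knockdown was then compared within each line, as log2 differences of ADARkd minus SCR. On the arrays labelled HepG2, 5 of the 97 members were at least 2-fold higher in ADARkd and 2 at least 2-fold lower, where 1.59% and 1.4% of all genes were, or 2.99% in either direction. Among the 17 members at or above the median level there, 4 were higher and 1 lower, against 4.03% of all such genes in either direction. That level is the mean of the arrays compared, so a gene can reach it through its brighter arm alone. SPINK6 (5.26 in SCR) and SERPINI1 (5.20 in ADARkd) did so, and these counts are no separate support for a difference. At 1.5-fold, 8 were higher and 8 lower, against 7.43% and 4.87% of all genes. The median difference was -0.05 over all members and 0.01 over all genes. With 1 array per arm these differences have no replicate check and no test. In such RNA, fewer expressing cells and less RNA per cell cannot be told apart.

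CPA4 differed most. This metallocarboxypeptidase, which trims amino acids from the carboxyl end of peptides, stood at 5.96 in SCR and 9.03 in ADARkd, an intensity 8.36-fold higher (log2 difference 3.06, transcript cluster 3023883). It ranked as number 3 from the highest difference among 14232 genes. In K562 it stood at 3.69 and 3.75, under the median level on both arrays.

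SPINK6, an inhibitor of kallikrein-related peptidases in skin, stood at 5.26 in SCR and 7.30 in ADARkd, 4.11-fold higher (2.04, transcript cluster 2834579), and ranked as number 15. In K562 it stood at 2.93 and 2.87. Its SCR level lay just under the median level, so that the size of the difference is uncertain. The other SPINK genes were dim: SPINK1, the pancreatic trypsin inhibitor, stood at 3.66 in SCR and 2.72 in ADARkd on these arrays.

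The plasminogen activator genes and their inhibitors differed in both directions. PLAT stood at 5.33 in SCR and 6.67 in ADARkd, 2.54-fold higher (1.34, transcript cluster 3133233), and SERPINE2 at 7.64 and 8.80, 2.23-fold higher (1.16, transcript cluster 2601414). SERPINI1 stood at 6.70 and 5.20, 2.84-fold lower (-1.51, transcript cluster 2651165). The protease PLAT and its inhibitor SERPINE2 were thus both higher in the ADARkd array, and its other inhibitor SERPINI1 was lower. PLAUR (7.76 and 7.60) and urokinase itself, PLAU (4.11 and 4.18, under the median level), differed by -0.16 and 0.07.

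SERPINB8, an inhibitor of the proprotein convertase furin, stood at 4.68 in SCR and 5.83 in ADARkd, 2.21-fold higher (1.14, transcript cluster 3791996). ADAMTS5, which cuts the cartilage proteoglycan aggrecan, stood at 5.47 and 4.25, 2.33-fold lower (-1.22, transcript cluster 3927480). The dimmer of the arrays lay under the median level for 4 of the 7 members at least 2-fold apart, these 2 among them. With the offset of 16 the differences were 0.80 for SERPINB8 and -0.78 for ADAMTS5, under 2-fold. ADAMTS10, a protease linked to fibrillin microfibrils, stood at 5.68 and 4.69, just short of 2-fold at -0.997.

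Among the others, clade B serpins went both ways on the arrays labelled HepG2: SERPINB5 differed by 0.49, SERPINB1 by 0.05 and SERPINB9 by -0.90. SERPINB1 changed sign with the scaling, to as low as -0.10. TIMP4 differed by 0.90 and the other TIMP genes by -0.20 to -0.31. ADAM12 and ADAM22, a synaptic ADAM without protease activity, both differed by -0.77, and ADAM9 and ADAM15 by 0.07 and 0.08, values that turned negative after rescaling (as low as -0.09 and -0.05). SLPI, the member farthest apart between the lines, differed by 0.15 between the arms.

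Markers of other cell types differed on the same arrays. Of 9 measured epithelial markers, 3 were at least 2-fold higher in ADARkd and 0 lower (1.59% and 1.4% of all genes). Others went both ways short of 2-fold, such as KRT8 (0.77) and KRT14 (-0.90). The summed intensity of the 9 epithelial markers was 1716 in SCR and 2984 in ADARkd, and in K562 it was 1211 and 1116. Of 12 fibroblast and stromal markers, 4 were at least 2-fold lower and 0 higher (1.4% and 1.59% of all genes). This list split as well, with LUM (0.78) and DCN (0.64) higher and VIM (-0.55) lower, all short of 2-fold. Its summed intensities were 2091 and 2225, against 523 and 502 in K562. No marker of either list is at 0 on any array. The part of these markers in the differences of the proteases and inhibitors was not tested.

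**Figure D3:**
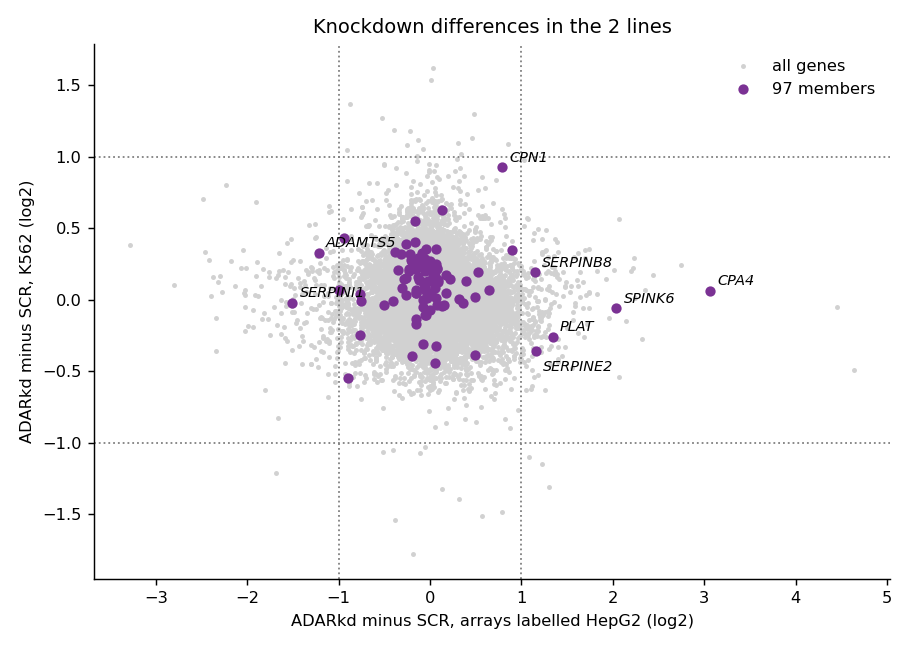
Difference ADARkd minus SCR (log2) on the arrays labelled HepG2 (x axis) and in K562 (y axis) for all genes (grey) and the 97 members (purple), with dotted lines at 2-fold. The 7 labelled members past the vertical lines are 2-fold apart on the arrays labelled HepG2, and no member crosses a horizontal line; CPN1 comes closest, at 0.92 in K562.

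In K562 no member was at least 2-fold apart in either direction, where 0.112% of all genes were higher and 0.0984% lower. Member differences ran from -0.55 to 0.92. CPN1 stood at 6.34 in SCR and 7.26 in ADARkd (0.92), and at 5.72 and 6.5 on the arrays labelled HepG2 (0.79). It was the only member at least 1.5-fold higher in both lines, and it ranked as number 24 from the highest difference in K562. At 1.5-fold, 2 members were higher in K562, CPN1 and the dim SERPIND1, and 0 lower, against 1.19% and 0.541% of all genes.

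SERPINB9 had the lowest difference in K562, -0.55 (6.63 in SCR, 6.08 in ADARkd), and was lower on the arrays labelled HepG2 as well (-0.90). SERPINB1 (-0.45), TIMP1 (-0.40), SPINK4 (-0.39) and SERPINE2 (-0.36, under the median level) followed. PLAT differed by -0.26, from 7.03 to 6.77. The knockdown differences of the lines were not compared by a test, since 1 array per arm leaves no residual degrees of freedom.

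Small positive differences in K562 moved with the level of the gene. Of 83 members under the median level there, 67 (80.7%) had a positive difference, and so had 74.8% of all genes under it. The median difference was 0.14 for these members and 0.13 for all such genes, and -0.07 for the 14 members and -0.07 for all genes at or above the median level. On the arrays labelled HepG2 the medians were -0.06 for 80 dim members and -0.04 for all dim genes, and 0.08 for 17 brighter members against 0.11 for all brighter genes. The SD of log2 values over all transcript clusters was 1.84 in SCR and 1.75 in ADARkd for K562, and 1.88 and 1.95 for the arrays labelled HepG2. Both scalings brought the median of brighter genes near 0, at 0.01 for the arrays labelled HepG2.

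**Figure D4:**
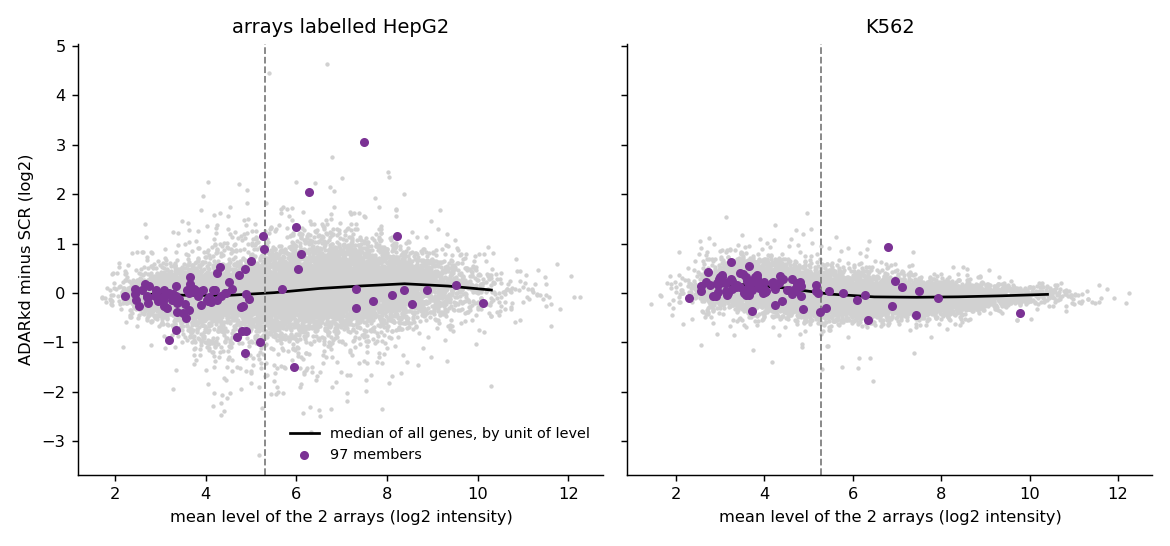
Difference ADARkd minus SCR (log2, y axis) against the mean level of the 2 arrays (log2 intensity, x axis), on the arrays labelled HepG2 (left) and in K562 (right). Grey points are all genes, purple points the 97 members, the black line the median of all genes in each unit of level and the dashed line the median level. Dim genes lie slightly above 0 in K562, at a median of 0.13, and the members follow the grey cloud there.

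A shared effect of the knockdown was fitted over both lines. With limma, no calls were made at an adjusted p under 0.05, that is 0 members and 0 genes in all (0% of those tested). At an unadjusted p under 0.05 there were 8 members, against 3.36% of all genes. These are not all differences common to both lines. On the arrays labelled HepG2 and in K562, CPA4 differed by 3.06 and 0.06, SERPINI1 by -1.51 and -0.02 and SPINK6 by 2.04 and -0.06. CPN1 had the lowest unadjusted p among the members, with an effect of 0.86 ± 0.21 (SE; limma adjusted p of 1) and a higher level in ADARkd in both lines. SERPINB9 came next at -0.72 ± 0.21 (adjusted p of 1), lower in both.

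Genes that work with these enzymes were described by lists chosen with earlier results of these data known. Of 26 measured partners of the plasmin system, 1 was at least 2-fold higher and 1 lower in ADARkd on the arrays labelled HepG2 (1.59% and 1.4% of all genes), with a median of 0.03. F3 (tissue factor), which starts coagulation, stood at 6.73 and 8.27 (1.54). LRP1, the endocytic receptor that clears complexes of proteases and their inhibitors, stood at 7.03 and 5.18 (-1.84), its ADARkd level under the median. The plasminogen receptor subunits ANXA2 and S100A10 differed by 0.64 and 0.32, and S100A10 by -0.56 in K562.

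The list headed other extracellular inhibitors split the same way, with 1 of 23 genes higher and 1 lower (1.59% and 1.4% of all genes). Its median was -0.11. The list also holds genes that are not extracellular inhibitors, such as PCOLCE, PCOLCE2, BSG and the cytosolic CSTA and CSTB. PI3 (elafin), a relative of SLPI, stood at 5.06 and 6.62 (1.56), its SCR level under the median. A2M, the broad protease trap of plasma and a ligand of LRP1, stood at 5.40 and 3.33 (-2.07), its ADARkd level under the median. RECK, a membrane inhibitor of metalloproteinases, differed by -0.70 and PCOLCE, which enhances procollagen cleavage, by -0.50.

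Of 28 sheddase substrates and cofactors, 5 were at least 2-fold higher on the arrays labelled HepG2 and 0 lower (1.59% and 1.4% of all genes), with a median of 0.19. They were the growth factors EPGN (2.75), TGFA (1.14) and EREG (1.13), the tetraspanin TSPAN15 (1.29), which partners ADAM10, and the proteoglycan SDC4 (1.06), the last named after its value was seen. TGFA was under the median level on both arrays, at 4.01 and 5.14. Of 24 matrix substrates, 0 were higher and 4 lower (1.59% and 1.4% of all genes), with a median of -0.05: COL3A1 (-2.42), FN1 (-1.80), COL1A1 (-1.12) and COL4A2 (-1.002). The ADARkd levels of COL3A1 (4.93) and COL1A1 (5.11) were under the median. Of 34 upstream factors, 4 were higher and 0 lower (1.59% and 1.4% of all genes), with a median of 0.28: the cytokines IL6 (4.46) and IL1A (2.32), KLF4 (1.15) and the ETS factor ETV5 (1.13). Of these 34 factors, 30 lay at or above the median level on these arrays. All genes at or above it had a median difference of 0.11, and 4.03% of them were 2-fold apart. IL6 (3.16) and KLF4 (5.27) were under the median in SCR. In K562 no gene of these 5 lists was 2-fold apart, against 0.211% of all genes. The K562 medians were 0.06 for plasmin partners, 0.09 for other inhibitors, -0.02 for sheddase substrates, 0.10 for matrix substrates and -0.07 for upstream factors.

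**Figure D5:**
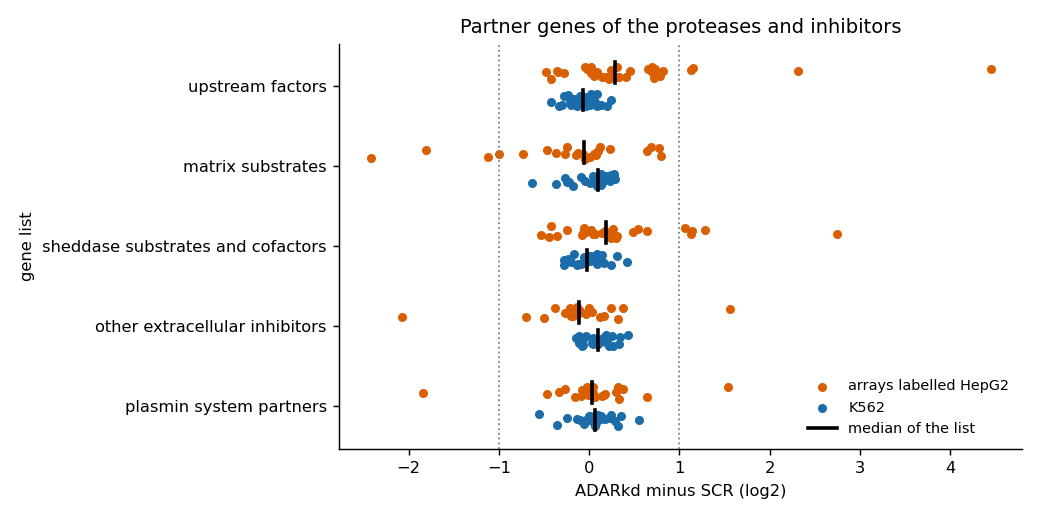
Difference ADARkd minus SCR (log2, x axis) of the genes of 5 partner lists (y axis), orange for the arrays labelled HepG2 and blue for K562; black bars are list medians and dotted lines 2-fold, and points are spread vertically at random. The K562 points all lie inside the 2-fold lines, while on the arrays labelled HepG2 the matrix substrates reach -2.42 and the upstream factors 4.46.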

How the data were processed

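Per the submitters' processing notes, RMA was used with the build hg18; versions and further steps were not found in the labels. The deposited values are linear intensities, 1 for each transcript cluster and array. Of 17881 clusters, 14432 had 1 symbol in the platform annotation, 2408 several and 1041 none; the last 2 kinds were not used. The brightest cluster stood for a gene, and log2 of the deposited intensity was taken without an offset. All 97 members were found in a RefSeq gene table by Entrez number, with 0 symbols changed.

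Within a line the difference was ADARkd minus SCR, counted at 2-fold, with no filter on dim genes so that each member is accounted for. The lines and the shared effect were fitted on 14232 genes with limma 3.58.1 in R 4.3.3 (line and arm as terms, intensity trend, two-sided, Benjamini-Hochberg). The fit was also run on simulated data with independent normal noise and the spread estimated by the fit. Such data meet the assumptions of the fit, so the run cannot show whether they hold for these arrays. Figures were drawn with matplotlib 3.10.9.

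Members, lists and tests were chosen with earlier results of these data known. The genes named were members at least 2-fold apart in either line, up to 10 called members with the largest line difference each way, up to 4 of the highest mean level in each family, up to 4 of each list with the largest knockdown difference, and ADAR. Other genes were named after their values were seen. Alternatives were 2 scalings, an offset of 16, the mean of all clusters, filters on dim genes, a fit without the trend, and each arm alone.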

Additional observations from a re-analysis of the deposited data

Results flagged for a closer look

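Among the members at least 2-fold apart on the arrays labelled HepG2, 4 had a difference of the opposite sign in K562; the difference between the lines was not tested, since each arm has 1 array. For PLAT the values were 1.34 (arrays labelled HepG2) and -0.26 (K562). SERPINE2 differed by 1.16 and -0.36, with both K562 arrays under the median level. SPINK6 differed by 2.04 and -0.061, the second value close to 0 and also under the median level. ADAMTS5 differed by -1.22 and 0.33, again with dim values in K562.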

How the results depend on the processing

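With 1 array per arm, no value within a line has a replicate check, and dim levels limit the sizes. The labels give no replicate numbers to use as a block; the shared effect compares the arms within each line through the line term. The counts of members 2-fold apart on the arrays labelled HepG2 were 5 higher and 2 lower under quantile normalization and cyclic loess as well. The mean of all clusters gave the same counts. Only 2 of the 97 members have several clusters and those 2-fold apart each have a single cluster, so this setting could not change their values. With the filter at the median there were 4 higher and 1 lower, with the offset of 16 there were 4 higher and 1 lower, and keeping genes from the 75th percentile up gave 2 higher and 0 lower, as fewer genes remain. The filters within a line use the mean of the arrays compared, so a member can pass through its brighter arm alone. Among all genes the count on the arrays labelled HepG2 was 207 with the offset and 116 for genes from the 75th percentile up, against 426. In K562 it was 8 with the offset, 11 with the filter at the median and 1 at the 75th percentile, against 30, and the members' counts were 0 under each of these settings. Between the lines, the filter at the 75th percentile left 2 members higher in K562, 8 higher on the arrays labelled HepG2 and 1159 of all genes called. SCR arrays alone gave 7 and 15 members at least 2-fold apart, and ADARkd arrays alone 6 and 14. TIMP4 passed after cyclic loess, at -1.13. The shared effect had 0 calls under each setting run. None of the differences at least 2-fold apart among the named members changed sign under the 2 scalings. The offset of 16 cannot change the sign of a difference within a line, nor can the mean of all clusters for a gene with a single cluster.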
